A study of Mus musculus with 18 samples.

Results

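Expression of 10 chemokine genes was followed in sorted cardiac fibroblasts of neonatal mice. The genes were Ccl2, Ccl7, Ccl11, Ccl19, Cxcl1, Cxcl5, Cxcl12, Cxcl14, Cxcl16 and Cx3cl1. They were taken by name from the deposited count table, which lists 55453 gene symbols, and all 10 passed the filter on low counts, as did 16170 genes in all. The cells were GFP+ Tcf21-lineage cells sorted from the apical portion of the ventricles. The pups were heterozygous for Tcf21-MerCreMer and for Rosa-mTmG, and the methods name C57BL/6J as the purchased strain. All groups, controls included, carried both alleles and received tamoxifen once at P1, so GFP marks cells in which the Tcf21-driven Cre was active at that time, and their progeny. The 18 libraries form 6 groups of 3. P2 baseline and P10 baseline came from un-manipulated pups at postnatal days 2 and 10. Surgery at P2 gave the groups P2 sham +3 days, in which the heart was exposed and put back, and P2 resected +3 days, in which the apex was removed, both collected at P5. The same operations at P10 gave P10 sham +3 days, and likewise P10 resected +3 days, collected at P13. According to the methods, many pups did not survive surgery at P10, and hearts of the later ages were digested for longer. The sources do not say whether the 3 libraries of a group came from separate pups, so p-values measure the spread between these libraries, which may be technical.

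Chemokines are small proteins that steer the migration of cells by binding receptors of the G protein-coupled class. Fibroblasts of the heart are one of their sources: Ccl2 and Ccl7 draw monocytes, Cxcl1 and Cxcl5 draw neutrophils, Ccl11 draws eosinophils, and Ccl19 draws lymphocytes and dendritic cells. Cxcl12 holds and guides progenitor and vascular cells through Cxcr4 and is taken up by the scavenging receptor Ackr3. Cxcl14 has no receptor that is generally agreed on. Cxcl16 and Cx3cl1 are made as membrane proteins and released by the sheddases Adam10 and Adam17.

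The family names come from the spacing of the first cysteines, which the coding sequences show. The stretches below are from GENCODE M21 transcripts of GRCm38, 5′ to 3′ on the coding strand, with the codons of the first cysteine pair in capitals. They show the spacing and the bases before it. Each pair was searched for with the spacing that the gene's name gives, so the spacing is not an independent result.
Ccl2: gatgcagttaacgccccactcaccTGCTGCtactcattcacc
Ccl7: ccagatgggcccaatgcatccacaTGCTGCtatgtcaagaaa
Ccl11: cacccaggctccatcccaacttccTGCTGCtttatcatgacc
Ccl19: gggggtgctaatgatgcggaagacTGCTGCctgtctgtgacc
Cxcl1: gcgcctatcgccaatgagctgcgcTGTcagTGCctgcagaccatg
Cxcl5: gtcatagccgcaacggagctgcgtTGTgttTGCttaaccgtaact
Cxcl12: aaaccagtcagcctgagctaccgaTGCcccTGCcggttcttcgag
Cxcl14: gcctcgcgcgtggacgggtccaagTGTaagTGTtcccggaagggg
Cxcl16: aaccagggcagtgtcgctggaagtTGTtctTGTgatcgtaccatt
Cx3cl1: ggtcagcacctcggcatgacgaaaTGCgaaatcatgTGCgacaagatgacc
The cysteine codons are adjacent in the 4 CC genes, 1 codon apart in the 5 CXC genes and 3 codons apart in Cx3cl1. Codons for glutamate, leucine and arginine stand directly before the pair in Cxcl1 and Cxcl5 and in no other of the 10. That triplet marks the neutrophil-attracting CXC chemokines. The stretch of Cxcl12 lies in exon 2 on the plus strand (chr6:117171484-117171528) and that of Cxcl1 in exon 2 on the plus strand (chr5:90891472-90891516).

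The genes lie on 6 chromosomes of GRCm38, and 3 of the CC genes are neighbours. Ccl2 (chr11:82035571-82037453), Ccl7 (chr11:82045712-82047525) and Ccl11 (chr11:82057823-82062955) follow each other on the plus strand, and Cxcl16 (chr11:70453983-70459984) is on the minus strand of the same chromosome. Cxcl5 (chr5:90759360-90761624) and Cxcl1 (chr5:90891241-90893115) share chromosome 5. The others are Ccl19 (chr4:42754525-42756577), Cxcl12 (chr6:117168535-117181367), Cxcl14 (chr13:56288643-56296551) and Cx3cl1 (chr8:94772009-94782427). Reads were counted without strand, and 18.3% of the exon bases of Cxcl16 overlap Zmynd15 on the opposite strand. The 2 genes cannot be told apart there, and the exon length used for Cxcl16 per kb includes these bases. Of the 75-base stretches of Ccl19, 45.3% also occur in Ccl19-ps1, Ccl19-ps3, Gm12407 or Gm2564, and its values are uncertain.

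Library totals were 10462737 to 22980554 counts, and 3 counts, the upper limit that a count of 0 allows, are worth 0.128 to 0.296 CPM depending on the library. CPM values are counts scaled to library size with TMM factors, and such floors cover counting error only. Fibroblast markers were high in every group, with group means of 251 to 331 CPM for Tcf21 and 367 to 538 CPM for Pdgfra. Other cell types were present at lower levels: Ptprc, of leukocytes, averaged 0.737 to 5.48 CPM, Cd68, of macrophages, 2.79 to 20.8 CPM, Pecam1, of endothelium, 10.7 to 28.2 CPM, and Tnnt2, of cardiomyocytes, 59.6 to 233 CPM. In bulk libraries, fewer cells of a type and less RNA per cell cannot be told apart.

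Per kilobase of exon, the most abundant of the 10 genes was Cxcl1, whose group means were 93.6 to 271 CPM per kb, except at P2 baseline, where Ccl2 stood at 108 CPM per kb and Cxcl1 at 93.6. Cxcl12 went from 2.91 CPM per kb at P2 baseline to 43.8 at P10 resected +3 days. Cxcl16 lay between 9.54 and 23.3 CPM per kb in every group. Ccl19 stayed at 0.160 to 1.75 CPM per kb. Cxcl14 had no counts in 3 of the 6 groups.

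**Figure D1:**
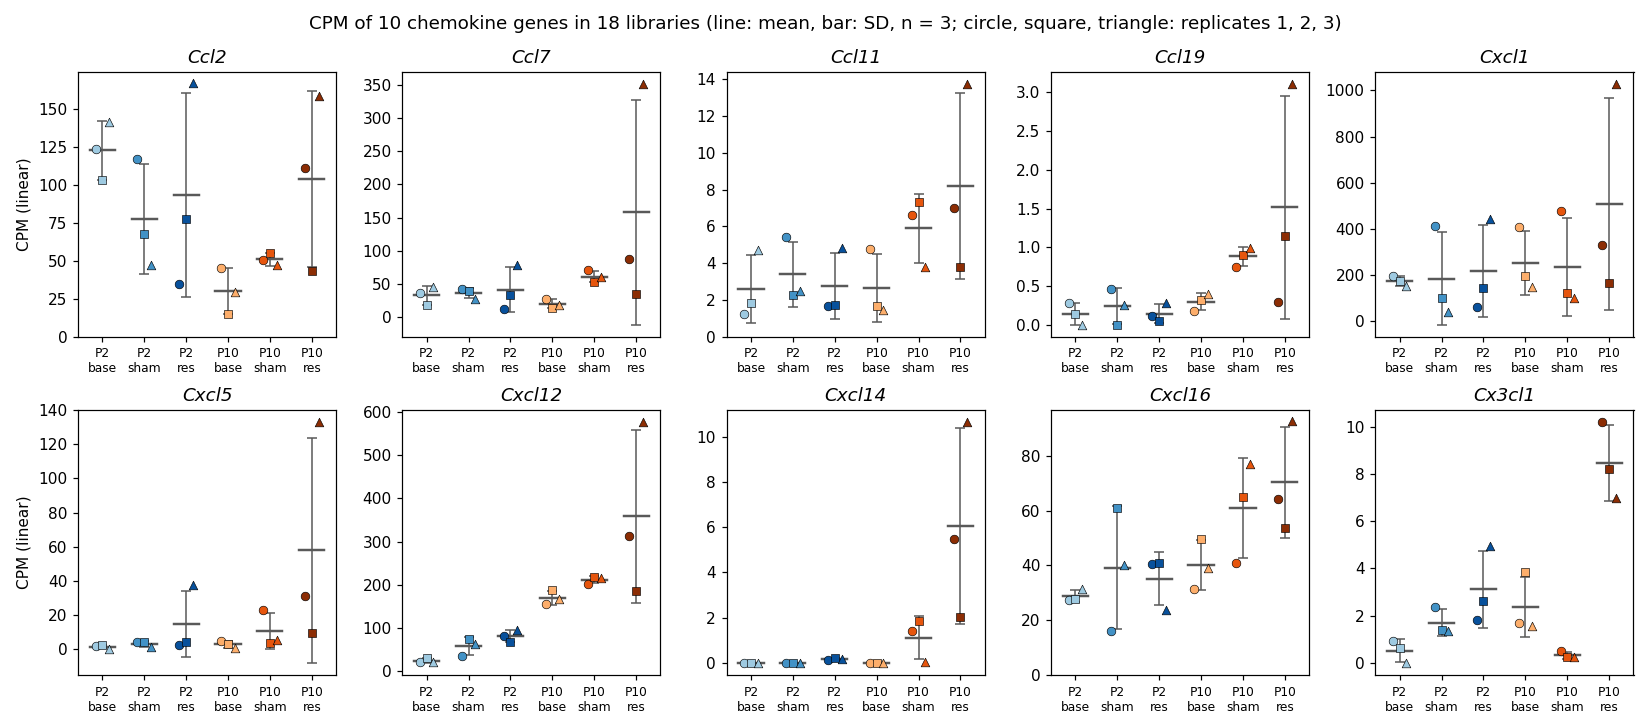
CPM of the 10 genes in each of the 18 libraries, with a panel for each gene, the 6 groups along the horizontal axis and linear vertical axes that differ between panels. Symbols are replicates, lines are group means and bars are 1 SD (n = 3). Cxcl12 was at 20.3 to 95.1 CPM in the P2 groups and at 155 to 577 CPM in the P10 groups, and replicate 3 of P10 resected +3 days held the highest value of all libraries for 8 of the 10 genes, all but Ccl2 and Cx3cl1.

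Cxcl12 was higher at P10 than at P2 in every comparison of the ages, with no overlap between libraries. At P2 baseline it stood at 20.3, 30.2 and 20.8 CPM, and at P10 baseline at 155, 187 and 166 CPM. After sham surgery the values were 34.3, 74.98 and 61.7 CPM at P2 and 202, 217 and 214 CPM at P10. After resection they were 80.1, 66.01 and 95.1 CPM at P2 and 314, 184 and 577 CPM at P10. The lowest of the 9 P10 libraries was thus above the highest of the 9 P2 libraries. Ordered by mean, the groups were P2 baseline (23.8 ± 5.55), P2 sham (57.0 ± 20.8), P2 resected (80.4 ± 14.6), P10 baseline (169 ± 16.3), P10 sham (211 ± 8.01) and P10 resected (358 ± 200 CPM, SD, n = 3 each). Of the neighbours in this order, the libraries of P2 sham and P2 resected overlapped, and so did those of P10 sham and P10 resected.

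At baseline, Cxcl12 differed between the ages by 2.83 on the log2 scale (SE 0.34, adjusted p = 2.76e-04). This and all adjusted p-values here are from the quasi-likelihood test of edgeR with the Benjamini-Hochberg adjustment over all genes tested, unless DESeq2 is named, and SE is the standard error of the log2 fold change. After sham surgery the difference was 1.89 (SE 0.34, adjusted p = 0.00491) and after resection 2.16 (SE 0.34, adjusted p = 0.00504). Whether the 3 differ from each other was tested only for resection against sham, where the difference was 0.26 (SE 0.48, adjusted p = 1). Over all P10 against all P2 groups it was 2.29 (SE 0.20, adjusted p = 1.13e-06). Without P2 resected +3 days replicate 2, the difference after resection was 2.03 and its adjusted p was 0.0631. Summed fibroblast markers moved with age too, from 44698 to 52760 CPM at P2 baseline to 70574 to 104229 CPM at P10 baseline, with 4 of 10 genes called higher. Summed mural cell markers went from 518 to 848 CPM to 1048 to 2006 CPM, with 4 of 9 called higher, beside 2.71% of all genes. Summed cardiomyocyte markers were lower, from 1130 to 1542 CPM at P2 baseline to 544 to 725 CPM at P10 baseline, with 0 of 11 positive and 0 called. Over all 3 groups of each age, 5 of 11 cardiomyocyte markers were called lower, beside 6.39% of all genes. Called higher there were 2 of 15 macrophage, 4 of 9 mural and 4 of 10 fibroblast markers, beside 7.11%, and 1 mural marker was lower. The part of these lists in the result was not tested.

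At baseline, 1 of the 10 genes was called higher at P10 and 1 lower, where 2.71% of all genes tested were higher, 1.68% lower and 4.38% either. An unadjusted p under 0.05 was found for 3 of the 10, Ccl2, Cxcl12 and Cx3cl1, and for 18.7% of all genes. Ccl2, the monocyte attractant, was the gene that fell. It stood at 124, 103 and 142 CPM at P2 baseline and at 45.5, 15.2 and 29.3 CPM at P10 baseline. The lowest P2 library was above the highest P10 library, and the log2 fold change was -2.04 (SE 0.52, adjusted p = 0.0391). This call did not hold when any one of 5 of the 6 libraries was left out, with adjusted p-values of 0.0732 to 0.172, although the difference stayed between -2.47 and -1.72. Only without P10 baseline replicate 1 was it kept (adjusted p = 0.0220). Summed macrophage markers were at 15.2 to 79.0 CPM at P2 baseline and 21.1 to 259 CPM at P10 baseline, with overlap, and 0 of 15 were called (edgeR). Of these 15, 12 were positive. Epicardial markers were positive in 0 of 7 (median -2.48, summed 3.49 to 18.3 CPM at P2 and 0 to 3.26 at P10). Neutrophil markers were positive in 0 of 4 (median -6.96, summed 0 to 13.8 and 0 to 0.296 CPM). None of either list was called, and the part of these cells was not tested.

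Libraries of the ages did not overlap for 3 genes that were higher at P10 baseline (Cxcl12, Cx3cl1 and Cxcl16), against 10.3% of all genes, and for 1 that was lower (Ccl2), against 12.1%. Cx3cl1 was at 0.921, 0.651 and 0 CPM at P2 baseline and 1.70, 3.85 and 1.58 CPM at P10 baseline, with a log2 fold change of 2.16 (adjusted p = 0.222). It was 1.59 to 2.82 when a library was left out, with the highest value without P2 baseline replicate 1. DESeq2 called it (2.17, adjusted p = 0.0299, against 0.166 to 0.504 under the other alternatives), as 1 of 3 of the 10 genes, where it called 10.4% of all genes. Cxcl16 was at 27.3, 27.8 and 31.4 CPM and then at 31.5, 49.5 and 39.1 CPM, with a log2 fold change of 0.47 (adjusted p = 0.573). The gap between the nearest libraries of Cxcl16 was narrow. Over the P10 against the P2 window, a term for all 3 groups of each age, Cxcl16 had a log2 fold change of 0.71 (SE 0.23, adjusted p = 0.0469), and 2 of the 10 genes were called higher, where 7.11% of all genes were, and 0 lower, where 6.39% were. Only Cxcl12 had all 9 P10 libraries above all 9 P2 libraries, as 1.15% of all genes did, and none of the 10 had them below, as 1.36% did. The call of Cxcl16 did not hold without any one of 14 of the 18 libraries, with differences of 0.63 to 0.76. Marker lists called in the same comparison are given above with Cxcl12, and their part was not tested.

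**Figure D2:**
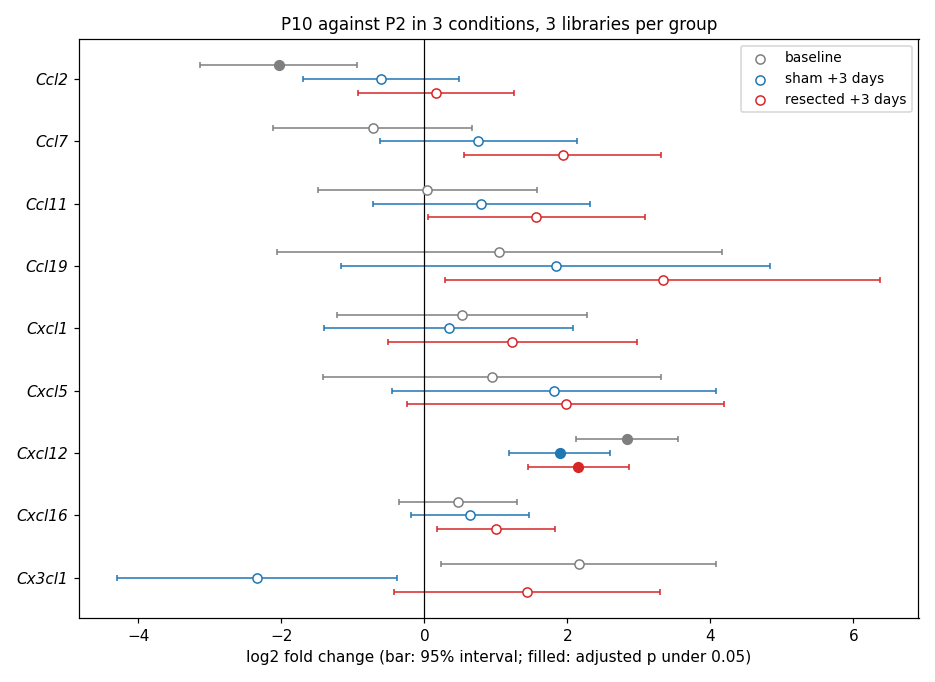
Log2 fold change of P10 against P2 (horizontal axis) for 9 of the genes, with Cxcl14 left out of every comparison because 3 of its 6 groups have no counts, in baseline, sham and resected libraries (3 against 3 each). Bars are 95% intervals and filled points have an adjusted p under 0.05. Cxcl12 is filled in all 3 conditions (2.83, 1.89 and 2.16), Ccl2 at baseline (-2.04) and no other gene.

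After sham surgery, 1 of the 10 genes was called higher at P10, Cxcl12, where 1.54% of all genes were, and none was called lower, where 1.65% were (3.18% in either direction). Macrophage markers were positive in 15 of 15 (median log2 fold change 1.41, summed 8.41 to 207 CPM at P2 and 110 to 407 at P10), with 0 called. Cardiomyocyte markers were positive in 1 of 11 (median -1.40, summed 932 to 1279 CPM at P2 and 166 to 836 at P10, without overlap), with 0 called. The part of either was not tested. Libraries did not overlap for 4 genes that were higher at P10 (Ccl7, Ccl19, Cxcl12 and Cxcl14), against 9.07% of all genes, and for 1 that was lower (Cx3cl1), against 7.61%. Ccl7, which sits beside Ccl2 and shares receptors with it, was at 41.8, 39.8 and 27.2 CPM at P2 and at 70.6, 53.0 and 59.9 CPM at P10, with a log2 fold change of 0.75 (adjusted p = 0.641). Cx3cl1 was at 2.37, 1.38 and 1.37 CPM at P2 and at 0.499, 0.259 and 0.236 CPM at P10. Its log2 fold change of -2.34 (SE 0.93, adjusted p = 0.229) had the opposite sign to that at baseline. DESeq2 called it here as well (-2.37, adjusted p = 0.0259, against 0.228 to 0.519 under the other alternatives), with 3 of the 10 genes and 8.01% of all genes called.

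After resection, 1 of the 10 genes was called higher at P10, again Cxcl12, where 0.625% of all genes were. All 10 had a positive log2 fold change, with a median of 1.75, beside a median of -0.04 over all genes tested. Without P10 resected +3 days replicate 3, 9 were positive and the median was 0.87, and without P2 resected +3 days replicate 1, 9 were positive and the median was 1.39, Ccl2 being negative in both. Other lists were positive too, with macrophage markers in 15 of 15 (median 1.10, summed 78.5 to 491 CPM at P2 and 85.5 to 1185 at P10), epicardial markers in 6 of 7 (median 1.40), inducers in 26 of 26 (median 0.72) and other chemokine genes in 14 of 16 (median 1.76). None of the macrophage or epicardial markers was called, and their part in the result was not tested. Libraries did not overlap for 5 of the 10 genes (Ccl19, Cxcl12, Cxcl14, Cxcl16 and Cx3cl1), against 10.6% of all genes, and for none in the lower direction, against 12.7%. An unadjusted p under 0.05 was found for 6 of the 10 and for 8.77% of all genes. Those not called include Ccl7 (1.94, adjusted p = 0.286), Cxcl16 (1.00, adjusted p = 0.401), Ccl11 (1.56, adjusted p = 0.560) and Ccl19 (3.33, adjusted p = 0.539). Without P10 resected +3 days replicate 3, the log2 fold change was 0.59 for Ccl7, 2.30 for Ccl19 and 0.99 for Ccl11. Without P2 resected +3 days replicate 3, it was 2.80, 4.15 and 2.24.

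Cxcl14 appeared only in operated hearts. It had 0 counts in all 9 libraries of P2 baseline, P2 sham +3 days and P10 baseline. There were 2, 5 and 3 counts at P2 resected +3 days, 28, 29 and 1 counts at P10 sham +3 days, and 110, 32 and 137 counts at P10 resected +3 days. In CPM these are 0.117, 0.214 and 0.165, then 1.40, 1.88 and 0.0472, then 5.47, 2.03 and 10.6. The highest group was P10 resected +3 days, whose libraries were all above those of P10 sham +3 days, where replicate 3 was near 0.

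The mean of Cxcl14 was set against a floor of 3 counts over the group without counts. At P10 sham +3 days it was 21.6 times the floor of P2 sham +3 days (adjusted p = 0.0502). It was 16.7 times the floor of P10 baseline (adjusted p = 0.406). At P2 the mean after resection, from 10 counts, was 3.23 times the floor of sham libraries (adjusted p = 1). These ratios leave out the spread of the group with counts, so they are not minimum fold changes. The first ratio was 13.6 without P2 sham replicate 2, 13.7 without P2 sham replicate 1 and 14.1 without P10 sham replicate 2, and 31.9 without P10 sham replicate 3. Leaving out that replicate 3 also turned the sham comparison of the ages into a call, as did DESeq2 and edgeR without the filter on low counts. The ratio to P10 baseline was 9.82 without P10 baseline replicate 2, 10.6 without P10 baseline replicate 1 and 10.9 without P10 sham replicate 2. At P2, leaving out sham replicate 1 or 2 gave 2.04 or 2.03. Between P10 and P2 after resection, with means of 6.05 and 0.165 CPM, the adjusted p was 0.194, and Cxcl14 was called when the fit held only these groups. DESeq2 also called Cxcl14 in P10 sham against P10 baseline.

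Resection against sham surgery was compared at each age, 3 days after the operation. At P2, edgeR's test called 0 of the 10 genes and 0% of all genes, and DESeq2 called 0 of the 10 and 0.200% of all genes. Cxcl14 was the 1 gene of the 10 with an unadjusted p under 0.05, against 4.51% of all genes. It was also the 1 gene whose resected libraries all lay higher, against 5.62% of all genes, and for none did they all lie lower, against 2.85%. Cxcl5 had the widest difference of the other 9, with a log2 fold change of 2.30 (95% interval 0.04 to 4.57, adjusted p = 1). Its libraries were at 3.90, 3.78 and 1.18 CPM after sham surgery and at 2.46, 4.36 and 37.3 CPM after resection, so that 1 library stood far above the rest, and without it, P2 resected replicate 3, the difference was 0.21. Summed macrophage markers were at 8.41 to 207 CPM after sham surgery and 78.5 to 491 CPM after resection, with 15 of 15 positive and 0 called, and their part was not tested. Cxcl16 differed by -0.16 (95% interval -0.98 to 0.67).

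At P10, edgeR's test called 0 of the 10 genes and 0% of all genes, and DESeq2 called 1, Cx3cl1, and 0.213% of all genes. Cx3cl1, Cxcl5 and Cxcl12, 3 of the 10, had an unadjusted p under 0.05, against 4.09% of all genes. All 10 log2 fold changes were positive, with a median of 1.07, beside a median of 0.02 over all genes tested. Without P10 resected replicate 3, only 6 were positive (Ccl7, Ccl11, Ccl19 and Cxcl16 were not) and the median was 0.15. Without P10 sham replicate 1, Cxcl16 was negative and the median was 1.26. Libraries did not overlap for 2 of them, Cx3cl1 and Cxcl14, against 5.63% of all genes, and for none in the lower direction, against 3.04%.

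Cx3cl1, the membrane-bound chemokine, had the widest gap between resected and sham libraries at P10. It stood at 0.499, 0.259 and 0.236 CPM after sham surgery, from 10, 4 and 5 counts, and at 10.2, 8.20 and 6.99 CPM after resection, from 205, 129 and 90 counts. At P2 the sham libraries were at 2.37, 1.38 and 1.37 CPM and the resected ones at 1.82, 2.61 and 4.96 CPM. The P10 libraries were well apart, and those at P2 overlapped.

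The log2 fold change of Cx3cl1 at P10 was 4.64 (SE 0.92, 95% interval 2.701 to 6.59, unadjusted p = 3.26e-04 and adjusted p = 0.626 with edgeR). With DESeq2 it was 4.67 (adjusted p = 7.46e-07), and the other alternatives gave adjusted p-values of 0.0692 to 1. It stayed between 4.45 and 5.06 when any one library was left out. The effect at P10 exceeded that at P2 by 3.77 (SE 1.28, unadjusted p = 0.0102, adjusted p = 1 with edgeR, 0.0977 with DESeq2 and 0.841 to 1 under the other alternatives), and 2.88% of all genes had an unadjusted p under 0.05 in this difference, while edgeR called 0 of the 10 and 0% of all genes. The sham libraries of this comparison also lay below those of P10 baseline, with a log2 fold change of -2.82 (adjusted p = 0.576), a comparison that shares them.

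Summed endothelial markers were at 581 to 695 CPM after P10 sham surgery and 528 to 713 CPM after resection, with 6 of 9 positive (median log2 fold change 1.08) and 0 called, and summed macrophage markers were at 110 to 407 and 85.5 to 1185 CPM, with 14 of 15 positive (median log2 fold change 0.80) and 0 called. Summed epicardial markers were at 0 to 8.80 CPM after sham surgery and 3.96 to 57.4 CPM after resection, with all 7 genes tested positive (median log2 fold change 4.28, and 4.24 for the effect at P10 minus that at P2) and 0 called. The part of these cells in Cx3cl1 was not tested.

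**Figure D3:**
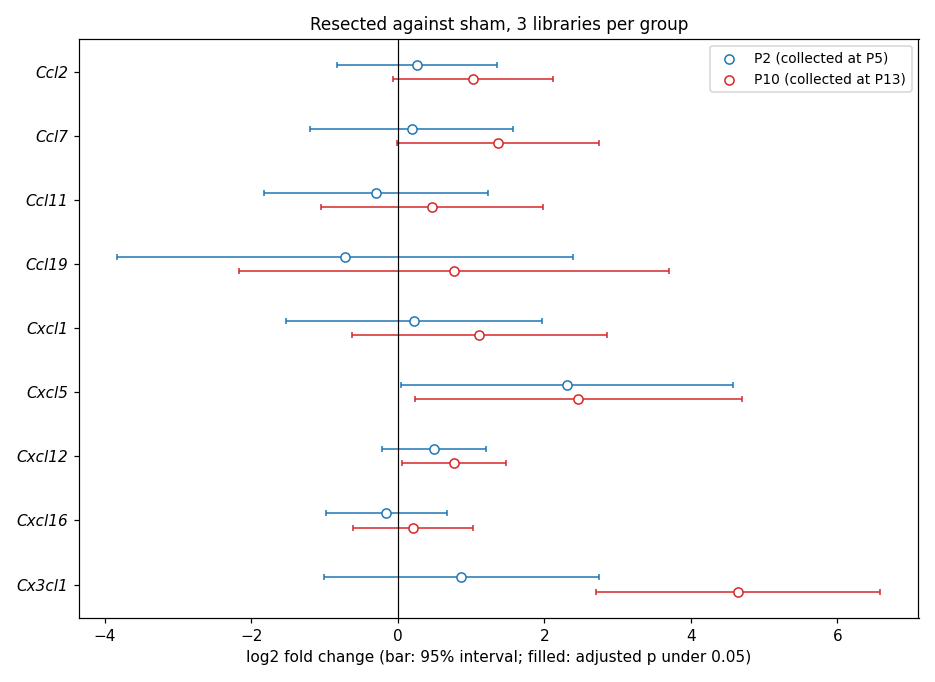
Log2 fold change of resected against sham libraries (horizontal axis) at P2 and at P10 for 9 of the genes, with Cxcl14 left out as before (3 libraries per group). Bars are 95% intervals and a filled point would have an adjusted p under 0.05. No point is filled, and Cx3cl1 at P10 (4.64) lies farthest from 0.

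Other differences at P10 moved with single libraries. Cxcl5 was at 22.6, 3.43 and 5.28 CPM after sham surgery and at 30.9, 9.41 and 133 CPM after resection, with a log2 fold change of 2.47 (adjusted p = 1) that was 0.93 without P10 resected replicate 3 and 3.72 without P10 sham replicate 1. Cxcl12 had a log2 fold change of 0.76 (95% interval 0.05 to 1.47, adjusted p = 1) that was 0.23 without P10 resected replicate 3. Ccl7 was at 87.6, 35.2 and 352 CPM after resection, and Cxcl1 at 330, 164 and 1028 CPM. Against sham libraries of 70.6, 53.0 and 59.9 CPM for Ccl7 and 480, 124 and 100 CPM for Cxcl1, the resected libraries overlapped for both. Without P10 resected replicate 3, the log2 fold change was 0.06 for Cxcl1 (1.11 with it) and 0.00 for Ccl7 (1.37 with it), and 2.18 for Cxcl1 without P10 sham replicate 1. Ccl2 was at 111, 43.1 and 159 CPM after resection and at 50.9, 55.1 and 47.1 CPM after sham surgery, with a log2 fold change of 1.03 (adjusted p = 1) that was 0.59 to 1.40 when a library was left out.

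Sham operated hearts were also compared with un-manipulated ones, a comparison that holds 3 days of growth as well. At P2, 0 of the 10 genes and 0% of all genes were called by edgeR, 1 of the 10 had an unadjusted p under 0.05 (Cxcl12), against 7.60% of all genes, and DESeq2 called that gene and 1.09% of all genes. Its log2 fold change was 1.26 (SE 0.34, adjusted p = 0.416), and Cxcl12 and Cx3cl1 were the 2 genes whose sham libraries all lay above baseline, against 4.48% of all genes. At P10, 0 of the 10 were called by edgeR, where 0.00618% of all genes were called higher, 3 of the 10 had an unadjusted p under 0.05, against 7.40% of all genes, and DESeq2 called 2 (Cx3cl1 and Cxcl14) and 0.963% of all genes. Libraries did not overlap for 5 genes that were higher after sham surgery (Ccl2, Ccl7, Ccl19, Cxcl12 and Cxcl14), against 5.34% of all genes, and for 1 that was lower (Cx3cl1), against 4.69%. In the same libraries macrophage markers were positive in 13 of 15 (median 1.24), mural markers in 0 of 9 (median -0.54) and immediate early genes in 1 of 24 (median -0.51), with 0 called in each list, and their part was not tested. Ccl7 went from 27.5, 14.4 and 18.1 CPM to 70.6, 53.0 and 59.9 CPM, with a log2 fold change of 1.61 (adjusted p = 0.649).

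Within groups, several chemokines, among them Cxcl1, Cxcl5, Ccl2 and Ccl7, varied together from library to library. Deviations from the group mean of log2 CPM correlated between Cxcl1 and Cxcl5 with r = 0.83 (rho = 0.80), between Cxcl1 and Ccl2 with r = 0.79 (rho = 0.72) and between Ccl2 and Ccl7 with r = 0.87 (rho = 0.81), over 18 libraries. The other pairs of these 4 were Cxcl1 with Ccl7 (r = 0.74), Ccl7 with Cxcl5 (r = 0.65) and Ccl2 with Cxcl5 (r = 0.61). Ccl11 had r = 0.77 with Ccl2, 0.71 with Ccl7, 0.70 with Cxcl1 and 0.46 with Cxcl5. These are descriptions without a test, and the values of a pair share their library and its depth. The library with the most Cxcl1 in its group also had the most Cxcl5 in 5 of the 6 groups and the most Ccl7 in 5. Deviations of Cxcl12 followed those of Cxcl1 less closely (r = 0.12, rho = -0.08, and r = 0.35 without the 2 libraries farthest in Cxcl1), and those of Cxcl16 ran the other way (r = -0.54, and -0.24 without them).

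The deviations of Cxcl1 also moved with the summed immediate early genes (r = 0.85, rho = 0.81, and 0.79 without the 2 libraries farthest in that sum). These genes are induced within minutes by stress such as tissue digestion. With the summed list of chemokine inducers, which holds NF-kB subunits, their regulator Nfkbiz and cytokine and Toll-like receptors, among others, r was 0.91. With summed macrophage markers it was negative (r = -0.87, rho = -0.83, and -0.81 without the 2 libraries farthest in these markers). In 5 of the 6 groups the library lowest in macrophage markers was the highest in Cxcl1. At P10 resected +3 days, for example, replicates 1, 2 and 3 held 505, 1185 and 85.5 CPM of macrophage markers and 330, 164 and 1028 CPM of Cxcl1. For Cxcl12, r was -0.05 with immediate early genes, and 0.23 without the 2 libraries farthest in their sum. With macrophage markers it was -0.03, and -0.04 without the 2 farthest in these. The deviations of Cxcl1 had r = 0.68 with summed fibroblast markers, 0.64 with mural, -0.48 with endothelial and -0.08 with cardiomyocyte markers. The part of digestion or of other cells in the Cxcl1 values was not tested.

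**Figure D4:**
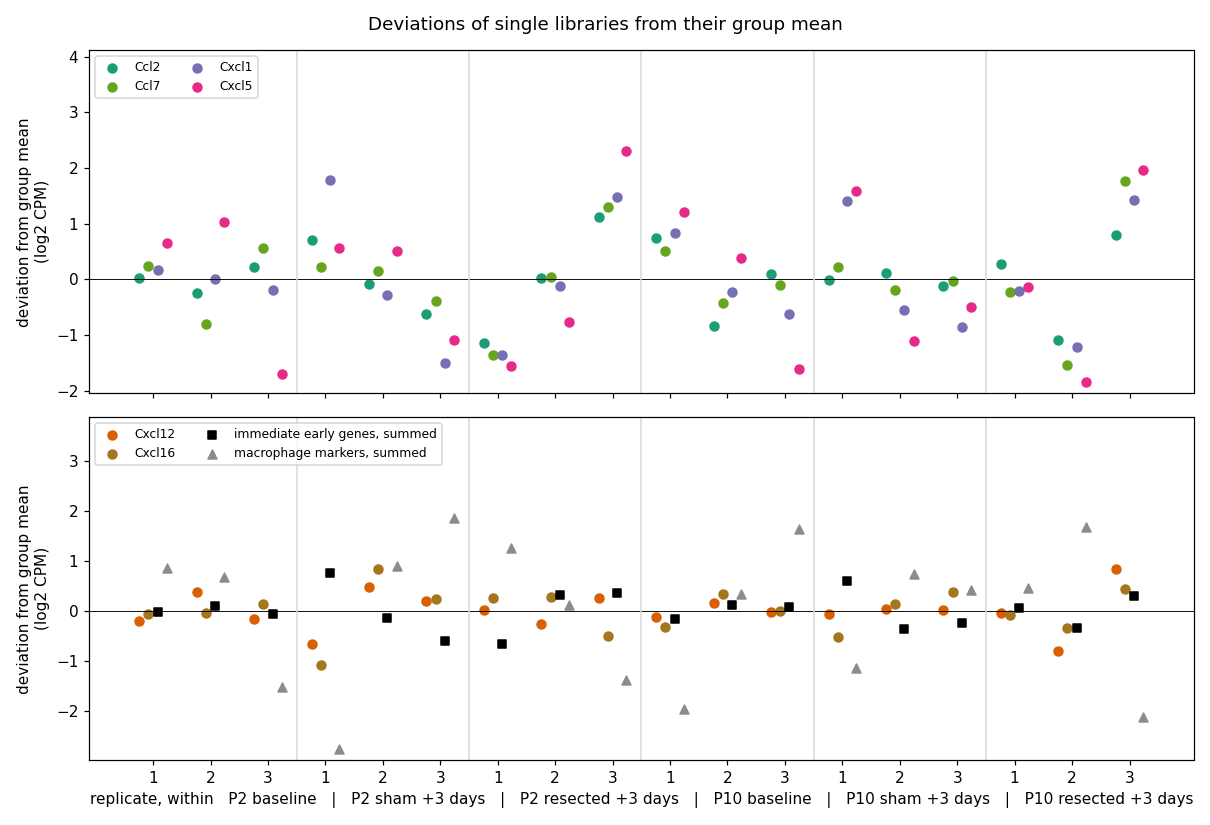
Deviation of each library from its group mean in log2 CPM (vertical axis), for Ccl2, Ccl7, Cxcl1 and Cxcl5 above and for Cxcl12, Cxcl16 and the summed immediate early and macrophage genes below, with the 3 replicates of each of the 6 groups along the horizontal axis. In replicate 3 of both resected groups the 4 genes above lie over 0 and the macrophage sum under 0.

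Summed immediate early genes were at 8101 to 9078 CPM at P2 baseline and 15679 to 19058 CPM at P10 baseline. Of the 24 tested, 5 were called higher (Jun, Junb, Jund, Klf2 and Dusp1), beside 2.71% of all genes. Fos, at a mean of 1414 CPM at P2 baseline and 2614 at P10 baseline, was not called (adjusted p = 0.299), nor was Egr1, at 1923 and 3259 CPM (adjusted p = 0.289). Cxcl1 was not called with age at baseline, with a log2 fold change of 0.52 (95% interval -1.22 to 2.27, adjusted p = 0.809).

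Promoters are shown for a gene that varied within groups and for the one that followed age. These are the 250 bases before the RefSeq start on GRCm38.p6, for the plus-strand genes Cxcl1 (chr5:90890995-90891244) and Cxcl12 (chr6:117168285-117168534), with capitals for matches to the NF-kB consensus on either strand. RefSeq sequences matched 5 of the 10 genes.
Cxcl1: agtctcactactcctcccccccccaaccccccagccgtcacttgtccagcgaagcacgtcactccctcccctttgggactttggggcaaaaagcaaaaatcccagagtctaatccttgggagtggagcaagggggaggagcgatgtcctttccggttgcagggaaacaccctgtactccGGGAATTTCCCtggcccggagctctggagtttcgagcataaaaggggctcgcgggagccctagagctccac
Cxcl12: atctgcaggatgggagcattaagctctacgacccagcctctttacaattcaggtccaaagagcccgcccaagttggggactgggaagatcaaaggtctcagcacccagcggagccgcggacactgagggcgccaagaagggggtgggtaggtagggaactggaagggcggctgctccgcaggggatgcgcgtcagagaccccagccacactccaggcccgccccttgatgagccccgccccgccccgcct
Overlapping matches on both strands of Cxcl1 span 71 to 61 bases before the start, and 7.25% of 32851 promoters of this length hold the motif. Cxcl12 has none, nor a match to AP-1 (TGANTCA, in 6.75% of promoters) or to TATAAA (in 12.4%). Of the 5 promoters searched, Cxcl1 alone held the NF-kB motif and none held the AP-1 one. A match describes the letters and not a bound factor.

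For each gene, the 2 genes with the most similar profile over the 18 libraries were found by the Pearson correlation of log2 CPM, a description that carries age, library and depth. Those of Cxcl12 were Sod3 (r = 0.96) and Prss23 (r = 0.95), and those of Cxcl1 were Nfkbiz (r = 0.94) and Il6 (r = 0.93). Ccl7 was most like Khdrbs3 (r = 0.86) and Ccl11 (r = 0.83), its neighbour on the chromosome. Ccl2 was most like Mpp6 and Acadl (r = 0.81 each), Cxcl5 like Mt2 and Trib1 (r = 0.86 each), and Ccl11 like Phyh (r = 0.86) and Medag (r = 0.85). Cxcl16 was most like Iah1 and Psen2 (r = 0.91 each), and Cxcl14 like Mmp27 (r = 0.93) and Tnfsf13b (r = 0.89). The last are Ccl19 with Inpp1 (r = 0.89) and Bmper (r = 0.87), and Cx3cl1 with Crabp2 (r = 0.79) and Runx1 (r = 0.77).

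Of 23 receptor genes 11 passed the filter. At P10 baseline 4 were called higher (Ackr3, Ackr2, Ackr1 and Ccrl2), beside 2.71% of all genes, and 0 lower, beside 1.68%. All 4 are of the atypical kind that does not signal through G proteins. Ackr3, which takes up Cxcl12, was at 32.4 ± 19.2 CPM at P2 baseline and 442 ± 183 CPM at P10 baseline (SD, n = 3 each). On the log2 scale the change was 3.77 (SE 0.45, adjusted p = 3.63e-04). It was also higher at P10 after sham surgery (2.56, adjusted p = 0.00500) and after resection (2.91, adjusted p = 0.00540). Ackr3 thus changed with age in the 3 comparisons in which its ligand Cxcl12 did.

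Ackr2, which scavenges inflammatory CC chemokines such as Ccl2 and Ccl7, went from 5.95 ± 3.23 to 46.6 ± 5.17 CPM at baseline (log2 fold change 2.97, adjusted p = 6.41e-04), and was also higher at P10 after sham surgery (2.69, adjusted p = 0.00132) and after resection (2.15, adjusted p = 0.0146). Ccl2 was called lower at baseline, as above, and not called after sham surgery (-0.60, adjusted p = 0.635) or after resection (0.16, adjusted p = 0.996). Ccrl2, an atypical receptor, went from 2.65 to 23.1 CPM (3.11, adjusted p = 0.00228). Ackr1, which binds inflammatory chemokines of both families, had 0 counts at P2 baseline and 86 at P10 baseline (adjusted p = 0.0471).

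Most of the signalling receptors that pair with the 10 chemokines had low counts. Cxcr2, the receptor of Cxcl1 and Cxcl5, had no counts in any library. Ccr3, of Ccl11, had 6 counts in all, and group means of Ccr2, of Ccl2 and Ccl7, were at most 1.44 CPM. Those of Ccr7, of Ccl19, were at most 0.574 CPM, those of Cxcr6, of Cxcl16, at most 0.424 CPM, and those of Cxcr4, of Cxcl12, at most 1.07 CPM. Cx3cr1, of Cx3cl1, averaged 1.84 to 7.85 CPM, with libraries at 0 in 3 groups. Ccr1, which also binds Ccl7, averaged 0.755 to 4.64 CPM, with libraries at 0 in 4 groups.

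**Figure D5:**
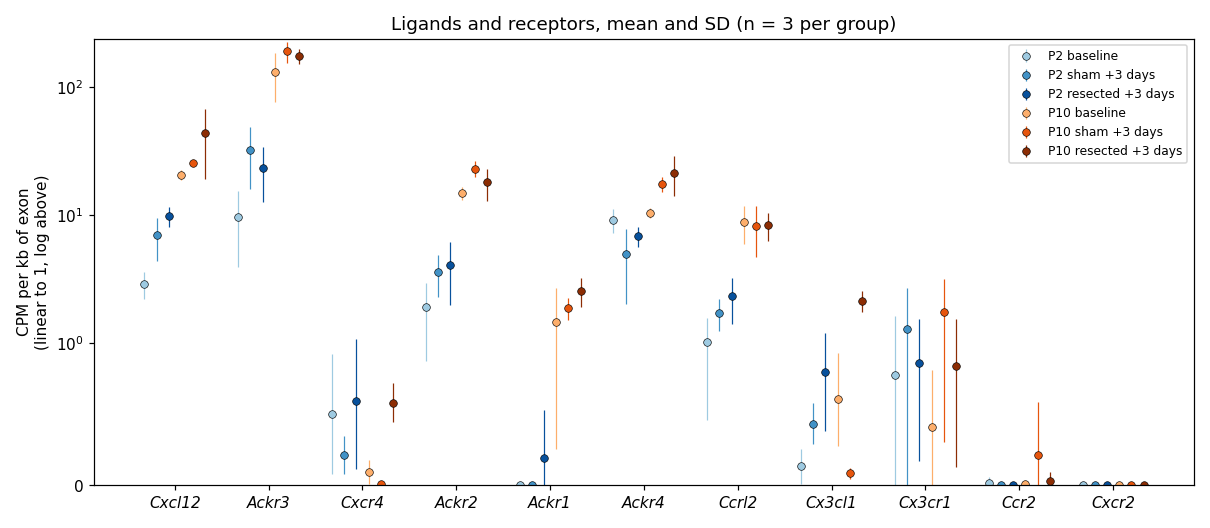
CPM per kb of exon (vertical axis, linear to 1 and logarithmic above) of Cxcl12, Cx3cl1 and 9 receptor genes in the 6 groups. Points are means and bars are 1 SD (n = 3), and the axis starts at 0. Cxcl12 and Ackr3 are both higher in the 3 P10 groups than in the 3 P2 groups, and Cxcr2 is at 0 throughout.

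The proteases that process chemokines were expressed at both ages. Adam10 averaged 130 CPM at P2 baseline and 107 at P10 baseline (log2 fold change -0.27, adjusted p = 0.812), and Adam17 75.4 and 65.4 CPM (-0.21, adjusted p = 0.789). Of 7 such genes 2 were called higher at P10 baseline, beside 2.71% of all genes. They were Mmp2, which can cleave Cxcl12 (1.13, adjusted p = 0.00137), and Rhbdf1, a partner of Adam17 (0.96, adjusted p = 0.0256). Of the 26 genes of the inducer list, Tnfrsf1b, a TNF receptor, was called higher at P10 baseline (1.15, adjusted p = 0.0250). None of the 7 proteases was called in resected against sham libraries at either age (edgeR, with an unadjusted p under 0.05 for 1 of them, Mmp14, at P2).

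Of 28 other chemokine genes 16 passed the filter, and 0 were called with age at baseline, after sham surgery or after resection. In the window comparison 1 was, Ccl8, beside 7.11% of all genes called higher. It was at 0.0509 CPM over the P2 groups and 1.80 over the P10 groups (adjusted p = 0.00682). After resection at P10 against sham, 14 of the 16 had a positive log2 fold change, with a median of 1.35, and 0 were called.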

How the data were processed

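The authors deposited counts per gene symbol, whole numbers without normalization. Per the methods and the submitters' processing notes, cDNA came from SMARTer amplification, libraries from the Nextera XT kit, and reads were single-end. Reads were trimmed with FastP 0.20.0, mapped with STAR 2.7.0f to GRCm38.p6 with GENCODE M22, and counted on exons with featureCounts (Subread 1.6.4) without regard to strand. Groups were taken from the sample descriptions. The titles of P10 baseline replicates 2 and 3 end in a P that no other title has, and the labels do not say what it means.

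From these counts, edgeR 4.0.16 in R 4.3.3 was used with filterByExpr (minimum count 10, minimum total 15), TMM scaling and a quasi-likelihood fit of all 18 libraries with 1 mean per group. Benjamini-Hochberg adjustment covered the 16170 genes tested, and an adjusted p under 0.05 was called. On data simulated for P10 against P2 baseline with 15522 genes, 58% of 4-fold and 88% of 8-fold changes were recovered, and 8% of 2-fold ones. The changed genes were drawn only from those with mean counts above those of Cx3cl1, Cxcl14 and Ccl19, so the rates do not cover these low-count genes. No pair of replicates agreed within sampling noise (chi-square per gene at least 36.7). Gene positions and coding sequences are of GENCODE M21, 1 release before the one counted on, and promoters are of RefSeq. The alternatives were DESeq2 1.42.0, DESeq2 size factors, no filter, only the compared groups, a replicate block and leaving out each library. The text names the 10 genes, their receptors and sheddases, genes called in the fixed lists (at baseline or with resection; at most 8 per list), defining cell type markers, Fos and Egr1, and the 2 genes most alike each of the 10. Mmp14, Ccl8 and Ccr1 were named after their values were seen. A gene of the inducer list that this rule names is not reported here. The genes and lists were chosen with earlier results of these data known.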

Additional observations from a re-analysis of the deposited data

How the results depend on the processing

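The counts of the 10 genes called moved with the tool and the filter. DESeq2's Wald test called 3 at baseline (2 with edgeR), Cx3cl1 being added, 3 in the sham comparison of the ages (1 with edgeR), 5 in the window (2), 1 in resected against sham at P10 (0), and 1 and 2 in sham against baseline at P2 and P10 (0 and 0). Without a filter on low counts, edgeR called 3 after sham surgery, 4 after resection (1) and 6 in the window, and 1 each in resected against sham at P2 (0) and P10 and in sham against baseline at P2 and P10. With only the compared groups in the fit, 2 were called after resection. DESeq2 size factors changed none of these counts. With a library left out, the counts were 1 to 2 at baseline (2), 1 to 2 after sham surgery, 0 to 1 after resection and 1 to 3 in the window, and 0 to 0 in the other comparisons. The call after resection was lost without P2 resected +3 days replicate 2, and a second call after sham surgery was gained without P10 sham +3 days replicate 3. Over all genes, the calls at baseline were 709, 1671 with DESeq2, 1155 without the filter and 295 with only the compared groups. After sham surgery they were 515, 1281, 911 and 125, and after resection 139, 506, 526 and 332. Leaving out a library gave 264 (P10 baseline replicate 2) to 1207 (P10 baseline replicate 1) at baseline, where each of the 6 omissions moved the count by over 1.5 times, 312 to 416 after sham surgery, with such moves without P2 or P10 sham replicate 3 or P10 sham replicate 1, and 30 to 136 after resection, with such moves without P10 resected replicate 3 or any P2 resected library (lowest without replicate 2). Resected against sham went from 0 to 34 with DESeq2 and 24 without the filter at P2 and from 0 to 43 and 76 at P10, their difference from 0 to 26 and 30, and sham against baseline from 0 to 180 and 110 at P2 and from 1 to 164 and 151 at P10. The cause was not tested. Same-numbered replicates of different groups deviated together in 15 of 45 pairs (correlation over 0.1, range -0.13 to 0.38), and the labels do not tie the numbers to litters or days. In 3 of 15 pairs of groups every correlation was over 0.1, among them P2 with P10 resected and P10 baseline with P10 sham. In the comparisons of these, the block changed no call of the 10 genes. With the replicate block, 2 of the 10 were called at baseline, 1 after sham surgery, 1 after resection and 0 with resection, and 3 in the window, Ccl2 being added (adjusted p = 0.0496, against 9.69e-04 to 0.206 under the other alternatives). The block gave 1 call over all genes in resected against sham at each age. Fold changes of the genes other than Cxcl14 with an unadjusted p under 0.05 kept their sign under these settings. Depth limits Ccl19, with 158 counts in all, and Cxcl14.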
